A study of Rattus norvegicus with 21 samples.

Results

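The 10 genes described here are core genes of the circadian clock and the transcription factors that carry its output: Bmal1, Clock, Per1, Per2, Cry1, Nr1d1, Nr1d2, Dbp, Tef and Nfil3. They were chosen by name, with earlier results of these data known. Where a gene had several probe sets annotated with its symbol alone, the brightest over the 21 arrays stood for it, and all 10 were found among the 13438 genes measured in this way. INS-1, a rat insulinoma line that secretes insulin and stands in for beta cells in culture, was measured on Affymetrix arrays in 7 groups of 3 arrays. The INS1 group held untransfected cells without cytokines. The pcDNA groups held INS-1 cells stably carrying the empty control plasmid, and the pCTSH#1 groups held 1 individual clone stably carrying a plasmid that encodes CTSH, the lysosomal protease cathepsin H. Both transfected lines were measured at 0, 6 and 16 h with 150 pg/ml mouse IL-1β and 5 ng/ml rat IFNγ, after a preculture of 3 days that all groups shared. No untreated arrays exist for 6 or 16 h, so a change from 0 h under cytokines cannot be told apart from a change with time in the plate, which matters for genes of a clock.

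The clock of mammalian cells is a transcriptional feedback loop that runs in nearly every tissue, the pancreatic islet included, where it takes part in the daily rhythm of insulin secretion. BMAL1 and CLOCK form a dimer that binds E-boxes and activates Per, Cry, Nr1d1, Nr1d2, Dbp and Tef; the PER and CRY proteins then inhibit that dimer. NR1D1 and NR1D2 (REV-ERB alpha and beta) repress Bmal1 and Nfil3, while DBP and TEF activate and NFIL3 represses genes that carry a D-box. In a rhythmic tissue Bmal1 and Nfil3 therefore peak at other times of day than Nr1d1, Dbp and the Per genes. RNA from a culture of unsynchronised cells gives the mean over cells in different phases.

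The windows around the transcript starts are shown because members of several arms of the loop moved together at 16 h. RefSeq promoter windows (rat build GRCr8, 250 bases before to 50 after a start) were matched by symbol for 9 of the 10 genes, in 11 windows, with 2 each for Nr1d1 and Clock. Cry1 had no window. The 5 windows with a match to a searched word are printed below from base 250 before the start to the base before it, on the gene's strand, with the match in capitals.
Nr1d1, chr10:84229455-84229704, minus strand, E-box: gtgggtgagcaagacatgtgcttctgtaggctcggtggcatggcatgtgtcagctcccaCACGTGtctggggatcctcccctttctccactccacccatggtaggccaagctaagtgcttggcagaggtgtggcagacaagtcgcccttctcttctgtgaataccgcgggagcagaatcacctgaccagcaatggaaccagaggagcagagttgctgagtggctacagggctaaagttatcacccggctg
Tef, chr7:115206577-115206826, plus strand, E-box: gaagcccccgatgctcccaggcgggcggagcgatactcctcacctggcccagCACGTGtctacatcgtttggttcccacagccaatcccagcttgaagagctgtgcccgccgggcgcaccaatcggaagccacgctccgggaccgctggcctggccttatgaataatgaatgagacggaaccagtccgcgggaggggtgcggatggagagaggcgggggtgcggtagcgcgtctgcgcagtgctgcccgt
Per2, chr9:99496994-99497243, minus strand, D-box: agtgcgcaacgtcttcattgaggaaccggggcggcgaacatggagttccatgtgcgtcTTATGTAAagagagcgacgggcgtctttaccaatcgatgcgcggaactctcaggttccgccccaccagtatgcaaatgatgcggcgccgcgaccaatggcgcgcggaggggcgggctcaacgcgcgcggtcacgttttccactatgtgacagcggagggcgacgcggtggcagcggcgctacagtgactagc
Bmal1, chr1:176766078-176766327, plus strand, REV-ERB and ROR word: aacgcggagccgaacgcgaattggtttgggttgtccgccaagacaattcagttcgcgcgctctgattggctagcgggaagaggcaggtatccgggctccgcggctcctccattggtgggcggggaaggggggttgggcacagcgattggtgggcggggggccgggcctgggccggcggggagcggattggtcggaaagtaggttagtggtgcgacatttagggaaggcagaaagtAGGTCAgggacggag
Nr1d2, chr15:9954784-9955033, plus strand, REV-ERB and ROR word: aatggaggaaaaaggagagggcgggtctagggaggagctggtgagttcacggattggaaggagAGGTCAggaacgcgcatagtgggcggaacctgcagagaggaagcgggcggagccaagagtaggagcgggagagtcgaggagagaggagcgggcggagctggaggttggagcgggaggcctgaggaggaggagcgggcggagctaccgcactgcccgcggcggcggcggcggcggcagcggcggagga
The E-box CACGTG, the word bound by BMAL1 and CLOCK, lay 191 bases before the start of 1 Nr1d1 window and 198 bases before that of Tef, and 6.42% of the 33469 windows in the table held it. The D-box, searched as TTATGTAA or TTACGTAA, lay 192 bases before the start of Per2 and occurs in 1.01% of windows. AGGTCA, the core word bound by the REV-ERB and ROR receptors, lay 15 bases before the start of Bmal1 and 187 bases before that of Nr1d2, and 16.2% of windows held it. The cAMP element TGACGTCA (1.83% of windows) and the C/EBP-ATF element TGATGCAA (0.795%) were found in none of the 11 windows. All words were searched on both strands, and no printed match overlapped another. The other 6 windows, which include those of Nfil3, Dbp and Per1, held none of these letters, which says nothing about sites elsewhere in the genes. The windows of Tef and Per1, the printed one of Nr1d1 and 1 of Clock lie at internal starts, inside the annotated gene. The Bmal1 and Per2 windows also have their start inside the annotated gene, close to its outer start. The Bmal1 match therefore lies inside the annotated gene, and the Per2 match lies outside it. The Nr1d1 window at the outer start held no match, and no window at the outer start of Tef or Per1 was searched.

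Probe set values are log2 intensities, so a difference of 1 is a doubling, and they are compared between groups and never between genes. Array medians lay between 4.88 and 5.08, and 61.4% to 71.0% of probe sets were above the nonspecific controls. Of the 10 beta-cell markers listed, 7 were measured and all 7 were above that level in every group, while none of 3 delta-cell markers, 1 of 3 alpha-cell, 1 to 2 of 5 acinar and at most 1 of 3 endothelial and 1 of 5 fibroblast markers were. Some of these markers moved with time. In pcDNA at 0, 6 and 16 h the beta-cell factor Nkx6-1 read 8.46, 5.32 and 5.45, Pdx1 9.73, 9.22 and 7.74, the alpha-cell hormone Gcg 8.60, 7.99 and 6.26, and the fibroblast marker Pdgfra 5.82, 4.32 and 3.95. The summed level at 16 h was 15.21 to 15.43 for the beta-cell list (15.44 to 15.7 in the other groups), 6.36 to 7.24 for the alpha-cell list (7.63 to 9.11) and 6.03 to 6.21 for the fibroblast list (6.16 to 6.95). The summed level of 5 leukocyte markers was 6.53 to 6.91 at 16 h against 6.09 to 6.38 in the other groups. Of these Cd68 alone was above background, at 4.69 in pcDNA at 0 h and 5.52 at 16 h, while Ptprc, Adgre1, Csf1r and Cd14 were at background. The 3′ minus 5′ signal of beta-actin, a sign of RNA quality, was 0.595 to 0.684 in pCTSH#1 at 16 h and 0.717 to 0.993 in the other groups. The median SD between replicate arrays was 0.133 and 0.135 at 16 h and 0.104 and 0.106 at 6 h. The part of these differences in the results was not tested. In such bulk RNA, fewer cells with a transcript and less of it per cell cannot be told apart.

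At 16 h with cytokines nearly the whole clock gene set stood above its 0 h level. In pcDNA 9 of the 10 genes rose, by 0.48 to 3.29 on the log2 scale, and the tenth, Cry1, read 0.23 ± 0.11 higher (SE, adjusted p = 0.108, limma). Among all 31042 probe sets tested 21.3% rose and 25.1% fell in the same comparison. In pCTSH#1 8 of the 10 rose, against 20.8% of all probe sets (25.6% fell), and Clock and Cry1 did not pass. No member fell at 16 h in either line. The median change over the 10 genes was 1.22 in pcDNA and 1.1 in pCTSH#1, and over all probe sets it was 0.00097 and -0.0031. Among the 13438 genes with 1 probe set each, 25.8% rose in pcDNA and 25.2% in pCTSH#1. The members were chosen with earlier results of these data known, so these shares give the scale and do not test the set.

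The change was not steady, since at 6 h more of the genes were lower than higher. In pcDNA 4 genes fell (Nfil3, Dbp, Tef and Cry1), against 18.5% of all probe sets, and Per2 rose, against 12.1%. In pCTSH#1 5 fell (Nfil3, Dbp, Tef, Cry1 and Nr1d2), against 16% of all probe sets, and none rose, against 10.7%; Per2, the only member above its 0 h mean there, had an unadjusted p of 0.0685. Among the 13438 genes with 1 probe set each, 24.6% fell and 14.5% rose at 6 h in pcDNA, and 21.3% and 13% in pCTSH#1. Brighter probe sets were called more often. When only the brighter 15521 were fitted, 8865 were called at 6 h in pcDNA, 3300 of them higher, and 8012 in pCTSH#1, 3027 of them higher. Only 37.2% and 37.8% of these calls were thus higher, and the rest were lower. The 4 and 5 members that fell lie near or somewhat above the share of brighter probe sets that fell. Their fall at 6 h is therefore not read as particular to clock genes. From 6 to 16 h all 10 genes rose in pcDNA (20.2% of probe sets rose and 22% fell) and 9 of 10 in pCTSH#1 (19.4% and 21.9%), all but Clock. The comparisons within a line share arrays, so their values are given side by side and not as separate evidence. Scaling moved the split over all probe sets: after cyclic loess 51.6% of the 6 h calls were higher in pcDNA against 39.6% as deposited, and 51.9% against 40.1% in pCTSH#1. Centring the arrays on their medians gave 57.9% against 47% for 16 h against 6 h in pCTSH#1, and left a median change over all probe sets of 0.103 there, against 0.0054 as deposited. For 16 h against 0 h centring turned the majority, to 54.8% of calls higher against 45.8% in pcDNA and to 53.1% against 44.8% in pCTSH#1. None of the called changes of the 10 genes changed sign under either scaling.

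**Figure D1:**
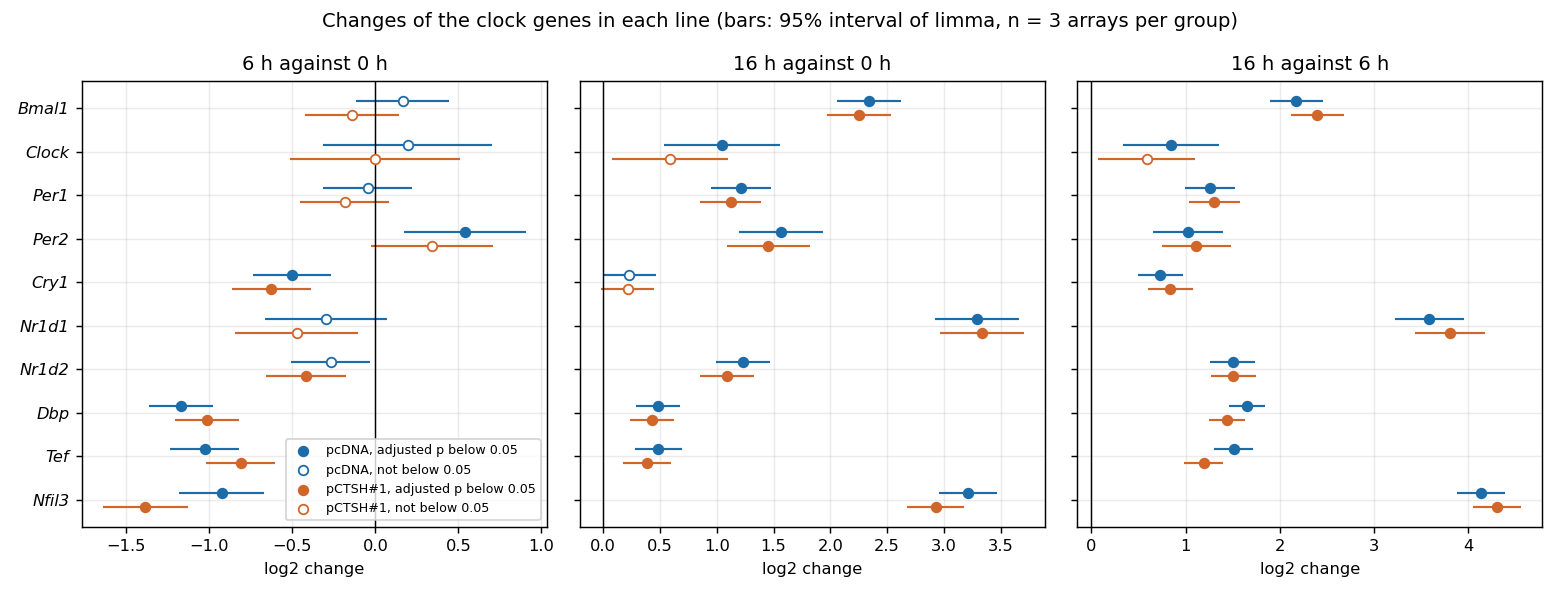
Log2 change (x axis) of each of the 10 clock genes (y axis) at 6 h against 0 h, 16 h against 0 h and 16 h against 6 h, for pcDNA (blue) and pCTSH#1 (orange). Points are limma estimates from 3 arrays per group, bars are 95% intervals, and filled points have an adjusted p below 0.05; at 6 h Nfil3, Dbp, Tef and Cry1 lie left of 0, and at 16 h all 10 lie right of 0.

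The activators of the loop were described first. Bmal1, whose product binds E-boxes with CLOCK, read 6.39, 6.56 and 6.28 in the 3 pcDNA arrays at 0 h, 6.51, 6.58 and 6.63 at 6 h, and 9.02, 8.68 and 8.55 at 16 h. In pCTSH#1 it read 6.31, 6.32 and 6.07 at 0 h, 6.23, 6.15 and 5.90 at 6 h, and 8.45, 8.63 and 8.39 at 16 h. All 6 arrays at 16 h lay far above every other array, while the 0 and 6 h arrays overlapped in each line. The 16 h change was 2.34 ± 0.13, or 5.06-fold, in pcDNA (adjusted p = 1.21e-11, limma) and 2.25 ± 0.13, or 4.77-fold, in pCTSH#1 (2.19e-11). At 6 h the changes of 0.16 ± 0.13 and -0.14 ± 0.13 did not pass (adjusted p = 0.428 and 0.527).

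Clock, the partner of Bmal1, was dim throughout and gave the least certain values. Its pcDNA arrays read 4.12, 3.73 and 4.01 at 0 h, 4.08, 4.30 and 4.06 at 6 h, and 5.67, 4.98 and 4.36 at 16 h. The pCTSH#1 arrays read 3.72, 3.75 and 4.47 at 0 h, 3.95, 4.07 and 3.92 at 6 h, and 4.88, 4.40 and 4.42 at 16 h. The pcDNA arrays at 16 h were spread over more than 1 log2 unit (SD 0.655, n = 3), and in pCTSH#1 a 0 h array lay above 2 of the 16 h arrays. By the tryptophan control probe sets no group was at background, with 1 array of pCTSH#1 at 6 h at or below them. In each 0 h group and in pCTSH#1 at 6 h, 2 of 3 arrays lay at or below the nonspecific controls (3.88 to 4.18). As fitted, Clock rose by 1.04 ± 0.24 in pcDNA at 16 h (adjusted p = 0.00122, limma). Against the nonspecific controls this is at least a 1.87-fold rise. In pCTSH#1 the 16 h difference was 0.58 ± 0.24 (adjusted p = 0.0568), at least 1.27-fold against that level, and it passed without replicate 3 of pCTSH#1 at 0 h (0.83, adjusted p = 0.0104), with centred arrays (0.67, 0.0271), after cyclic loess (0.63, 0.0415), with a robust eBayes (0.0408) and when adjusted over genes (0.0473). From 6 to 16 h in pCTSH#1 it read 0.59 ± 0.24 (adjusted p = 0.0624) and passed with centred arrays (0.0268), with a robust eBayes (0.0448) and in a model of those groups alone (0.0101). The rise from 6 to 16 h in pcDNA (0.85 ± 0.24, adjusted p = 0.00739) lost its call without replicate 1 of pcDNA at 16 h (0.52, 0.0701).

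The PER and CRY proteins inhibit BMAL1 and CLOCK, and Per1, Per2 and Cry1 are given in turn. Per1 read 6.77, 6.88 and 6.87 in pcDNA at 0 h, 6.73, 6.74 and 6.91 at 6 h, and 7.98, 8.11 and 8.07 at 16 h. Its pCTSH#1 arrays read 6.65, 6.82 and 6.91, then 6.90, 6.52 and 6.40, then 7.85, 7.85 and 8.04. The 0 and 6 h arrays overlapped and the 16 h arrays stood clear of them, with rises of 1.21 ± 0.13 (2.32-fold, adjusted p = 8.77e-08, limma) and 1.12 ± 0.13 (2.18-fold, 2.67e-07). The 6 h differences were -0.05 ± 0.13 in pcDNA and -0.19 ± 0.13 in pCTSH#1 (adjusted p = 0.847 and 0.346).

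Per2, an inhibitor like Per1, was already above its 0 h arrays at 6 h. The pcDNA arrays read 8.08, 7.61 and 7.76 at 0 h, 8.48, 8.32 and 8.26 at 6 h, and 9.25, 9.30 and 9.59 at 16 h. The pCTSH#1 arrays read 7.85, 7.82 and 7.79, then 8.21, 8.22 and 8.04, then 9.17, 9.35 and 9.30. The times did not overlap in either line, although the untransfected arrays, at 8.27, 8.09 and 7.30, were more widely spread than any other group of this gene. The rise at 16 h was 1.56 ± 0.18 in pcDNA (2.96-fold, adjusted p = 2.25e-07, limma) and 1.45 ± 0.18 in pCTSH#1 (2.74-fold, 6.38e-07). At 6 h the rise of 0.54 ± 0.18 in pcDNA passed (adjusted p = 0.0237), but leaving out replicate 1 of pcDNA at 6 h (0.48, 0.0902) or, at 0 h, replicate 2 (0.44, 0.113) or replicate 3 (0.51, 0.0696) ended the call. The other probe set of Per2 gave -0.12 ± 0.20 at 6 h in pcDNA (adjusted p = 0.737), and the mean of both gave 0.21 (0.124). At 16 h that other probe set rose more, by 2.74 ± 0.20 in pcDNA and 2.59 ± 0.20 in pCTSH#1. The 2 probe sets thus disagree at 6 h and agree in direction at 16 h.

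Cry1, which encodes a cryptochrome, fell at 6 h in both lines and did not pass at 16 h against 0 h in either. It read 8.38, 8.26 and 8.02 in pcDNA at 0 h, 7.64, 7.74 and 7.77 at 6 h, and 8.46, 8.44 and 8.45 at 16 h. In pCTSH#1 the arrays read 8.46, 8.57 and 8.25, then 7.90, 7.85 and 7.66, then 8.72, 8.73 and 8.48. All 6 h arrays lay below all 0 h arrays of their line. The fall was 0.50 ± 0.11 in pcDNA (1.42-fold, adjusted p = 0.00153, limma) and 0.63 ± 0.11 in pCTSH#1 (1.54-fold, 0.000221), and Cry1 rose again from 6 to 16 h by 0.73 ± 0.11 (1.79e-05) and 0.84 ± 0.11 (3.46e-06). At 16 h it was 0.21 ± 0.11 above 0 h in pCTSH#1 (adjusted p = 0.136). The pcDNA value at 16 h passed without replicate 1 of pcDNA at 0 h (0.31, adjusted p = 0.0472), and the values of both lines passed when arrays were centred (0.32, adjusted p = 0.0323, and 0.30, 0.0477) or scaled by cyclic loess (0.32, 0.0238, and 0.31, 0.0274).

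The REV-ERB genes, whose products repress Bmal1 and Nfil3, rose at 16 h together with both of these targets. Nr1d1 read 5.07, 5.22 and 5.01 in pcDNA at 0 h, 4.75, 4.51 and 5.15 at 6 h, and 8.43, 8.46 and 8.28 at 16 h. The pCTSH#1 arrays read 5.36, 5.36 and 4.57, then 4.62, 4.75 and 4.49, then 8.42, 8.33 and 8.53. Every 16 h array lay far above every other array, and the 0 and 6 h arrays overlapped in each line. The rise was 3.29 ± 0.18 in pcDNA, or 9.79-fold (adjusted p = 4.4e-12, limma), and 3.33 ± 0.18 in pCTSH#1, or 10.1-fold (3.81e-12), the largest estimates among the 10 genes at 16 h against 0 h. At 6 h Nr1d1 read -0.30 ± 0.18 and -0.47 ± 0.18 against 0 h (adjusted p = 0.244 and 0.0548). The latter passed without replicate 3 of pCTSH#1 at 0 h, the lowest array of its group (-0.74, adjusted p = 0.000866), among the brighter 50% of probe sets (0.0345), with a robust eBayes (0.0467), with array weights (0.0209) and when adjusted over genes (0.0405).

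Nr1d2, the second REV-ERB gene, read 9.98, 9.82 and 9.55 in pcDNA at 0 h, 9.51, 9.53 and 9.50 at 6 h, and 11.02, 10.96 and 11.06 at 16 h. Its pCTSH#1 arrays read 10.01, 9.87 and 9.60, then 9.48, 9.36 and 9.37, then 10.84, 10.96 and 10.94. The 6 h arrays lay below and the 16 h arrays above all 0 h arrays of their line. Rises at 16 h were 1.23 ± 0.11 in pcDNA (2.35-fold, adjusted p = 1.59e-08, limma) and 1.09 ± 0.11 in pCTSH#1 (2.13-fold, 9.53e-08). At 6 h the fall of 0.42 ± 0.11 in pCTSH#1 passed (adjusted p = 0.00891) and the value of -0.27 ± 0.11 in pcDNA did not (0.0874). The latter passed without replicate 3 of pcDNA at 0 h (-0.39, 0.0173), among the brighter 50% of probe sets (0.0485), with a robust eBayes (0.0336) and with array weights (0.0244). The pCTSH#1 value lost its call without replicate 1 of pCTSH#1 at 0 h (-0.33, 0.0635) and as the mean over probe sets (-0.21, 0.218), and the other 2 probe sets of Nr1d2 gave -0.12 and -0.08 there (adjusted p = 0.525 and 0.837). At 16 h those 2 probe sets rose by 1.45 ± 0.12 and 2.16 ± 0.20 in pcDNA.

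**Figure D2:**
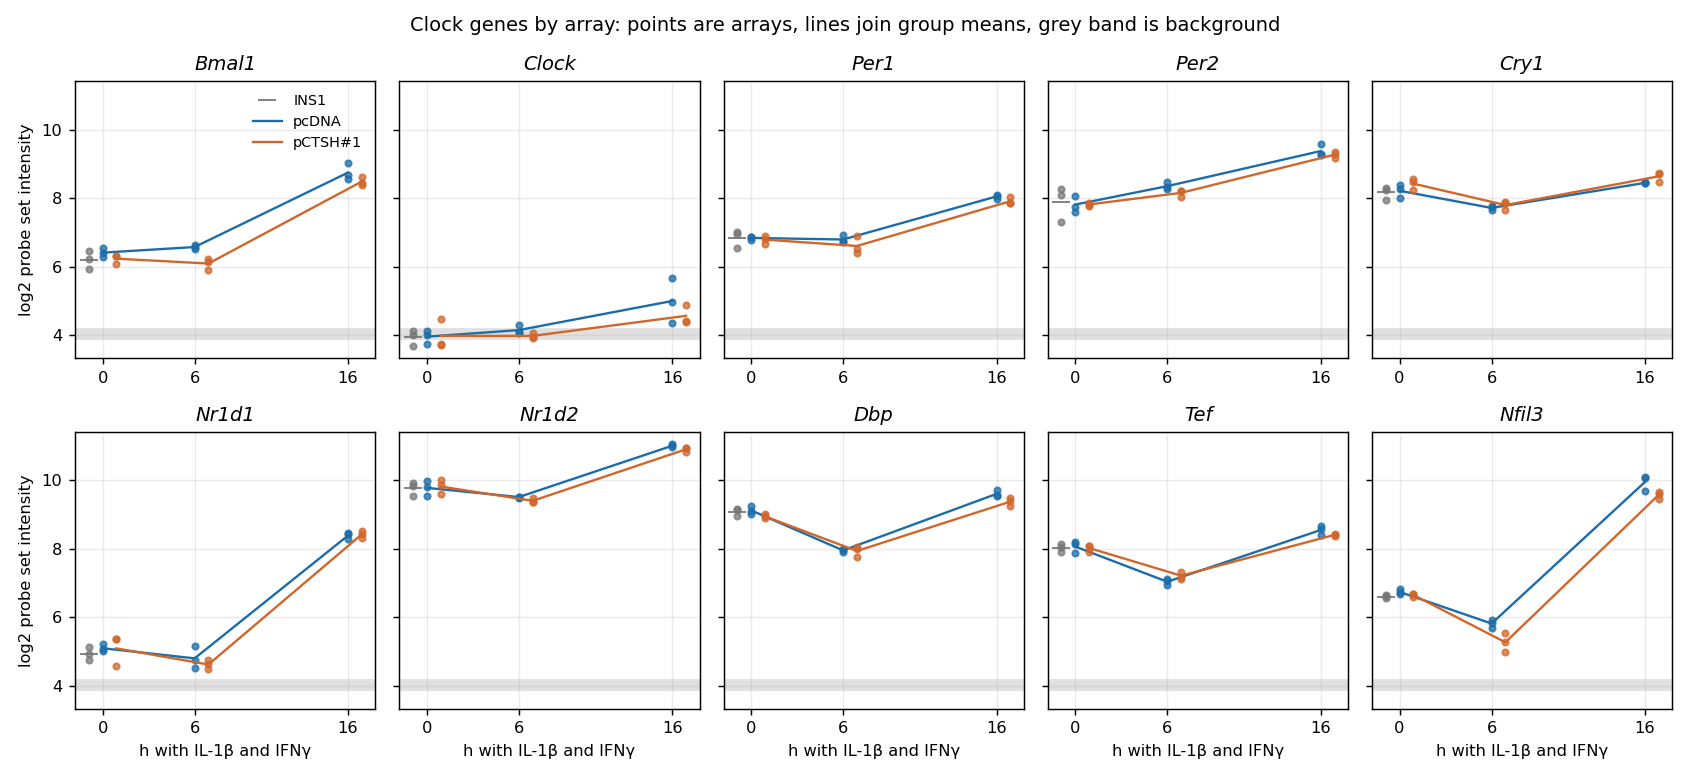
Log2 probe set intensity (y axis) of the 10 clock genes by h with IL-1β and IFNγ (x axis) in INS1 (grey), pcDNA (blue) and pCTSH#1 (orange); points are single arrays, lines join group means, and the grey band spans the nonspecific controls (3.88 to 4.18). Points of the lines are set apart sideways for sight only, and levels are not compared between panels; Nr1d1, Bmal1 and Nfil3 stand out at 16 h, Dbp, Tef, Cry1 and Nfil3 dip at 6 h, and Clock lies near the band.

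Dbp and Tef, which encode PAR bZIP activators of D-box genes, both fell at 6 h and stood above the start at 16 h. Dbp read 9.10, 9.02 and 9.26 in pcDNA at 0 h, 8.0, 7.97 and 7.91 at 6 h, and 9.55, 9.56 and 9.71 at 16 h. In pCTSH#1 Dbp read 8.89, 9.01 and 8.96, then 7.99, 8.06 and 7.77, then 9.39, 9.49 and 9.26. No 2 times overlapped in either line. Dbp fell by 1.17 ± 0.092 at 6 h in pcDNA (2.25-fold, adjusted p = 3.8e-09, limma) and by 1.01 ± 0.092 in pCTSH#1 (2.02-fold, 4.01e-08). At 16 h it stood 0.48 ± 0.092 above 0 h in pcDNA (1.39-fold, adjusted p = 0.000186) and 0.43 ± 0.092 in pCTSH#1 (1.35-fold, 0.000578).

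Tef read 8.20, 8.14 and 7.87 in pcDNA at 0 h, 7.05, 7.11 and 6.96 at 6 h, and 8.59, 8.40 and 8.67 at 16 h. Its pCTSH#1 arrays read 8.09, 8.10 and 7.90, then 7.13, 7.34 and 7.18, then 8.39, 8.44 and 8.40. The 6 h arrays were clearly lowest in both lines, and the 16 h arrays lay above those of 0 h by a smaller margin. The 6 h fall was 1.03 ± 0.099 in pcDNA (2.04-fold, adjusted p = 7.47e-08, limma) and 0.81 ± 0.099 in pCTSH#1 (1.75-fold, 2.44e-06). The 16 h rise was 0.48 ± 0.099 (1.40-fold, adjusted p = 0.000355) and 0.38 ± 0.099 (1.31-fold, 0.00298). Tef has 2 dimmer probe sets, and they differ on the late rise: at 16 h in pcDNA the dimmest gave 0.60 ± 0.18 (adjusted p = 0.0087) and the other -0.32 ± 0.15 (0.0946). In pCTSH#1 neither passed (0.28 ± 0.18, adjusted p = 0.225, and 0.07 ± 0.15, 0.739). At 6 h in pcDNA they gave -0.42 ± 0.18 (adjusted p = 0.0864) and -1.28 ± 0.15 (9.59e-07), so all 3 probe sets read lower at 6 h.

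Nfil3, which encodes the bZIP repressor of D-box genes, had the largest span of group means among the 10 genes. Its pcDNA arrays read 6.67, 6.74 and 6.82 at 0 h, 5.93, 5.85 and 5.68 at 6 h, and 10.11, 10.06 and 9.70 at 16 h. The pCTSH#1 arrays read 6.68, 6.70 and 6.59, then 5.29, 5.54 and 4.98, then 9.67, 9.60 and 9.47. No 2 times overlapped in either line, and the untransfected arrays (6.57, 6.61 and 6.64) lay with the other 0 h arrays. At 6 h Nfil3 fell by 0.92 ± 0.12 in pcDNA (1.90-fold, adjusted p = 4.75e-06, limma) and by 1.38 ± 0.12 in pCTSH#1 (2.61-fold, 2.37e-08). At 16 h it stood 3.21 ± 0.12 above 0 h in pcDNA (9.27-fold, adjusted p = 2.71e-14) and 2.93 ± 0.12 in pCTSH#1 (7.60-fold, 1.07e-13). From 6 to 16 h this made 17.6-fold in pcDNA and 19.8-fold in pCTSH#1. By their brightest probe sets Nfil3, Dbp and Tef thus fell together at 6 h and stood above 0 h together at 16 h in both lines. The late rise of Tef was not shared by all its probe sets, as given above. Hlf, a further activator of D-box genes described below, was not above 0 h at 16 h.

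The question of the series design, whether the CTSH clone differs from the empty vector line, gave 1 call among the 10 genes. As pCTSH#1 is 1 clone, an effect of CTSH cannot be told apart from a difference of that clone in any comparison of the lines. At 6 h Nfil3 was 0.55 ± 0.12 lower in pCTSH#1 than in pcDNA (1.46-fold, adjusted p = 0.0143, limma), against 2.86% of all probe sets that differed in either direction. All 3 pCTSH#1 arrays lay below all 3 pcDNA arrays. The call rests on few arrays: it ended without replicate 1 or 2 of pcDNA at 6 h (adjusted p = 0.0843 and 0.0616), without replicate 1 or 3 of pCTSH#1 at 6 h (0.05, at the threshold, and 0.0981), and in a fit on the 6 h arrays alone (0.0982). Bmal1 at 6 h read 0.48 ± 0.13 lower in pCTSH#1, again with no overlap of arrays, and missed the threshold (adjusted p = 0.0629), though it passed under several alternatives, such as among the brighter 50% of probe sets (0.035). That filter called 1089 of 15521 probe sets in this comparison, against 887 of 31042 as fitted. At 16 h Nfil3 was 0.37 ± 0.12 lower in pCTSH#1 (adjusted p = 0.103), a difference that passed without replicate 3 of pcDNA (-0.50, 0.0237). No member passed at 0 h, where 1.87% of all probe sets did and no member had an unadjusted p below 0.05. None passed at 16 h either (3.8% of all probe sets), with 2 members, Nfil3 and Dbp, below 0.05 before adjustment. At 16 h 8 of the 10 differences were negative and the widest interval, that of Clock, ran from -0.94 to 0.076.

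The responses of the lines were also compared with each other. The difference of the 6 h responses passed for none of the 10 genes (0.103% of all probe sets passed). Nfil3 came nearest there, with a response 0.46 ± 0.17 more negative in pCTSH#1 (unadjusted p = 0.0152, adjusted p = 0.668, limma). None passed for the 16 h responses (0.213% of all probe sets, no member below 0.05 before adjustment) or for the change from 6 to 16 h (0.267%, with Tef at an unadjusted p of 0.0354). For Nr1d1 the 16 h responses differed by 0.04 with a 95% interval from -0.48 to 0.56, and for Bmal1 by -0.09 with an interval from -0.48 to 0.31. Against untransfected cells at 0 h no member passed in pcDNA (0.00966% of all probe sets, none below 0.05 before adjustment) or in pCTSH#1 (2.57%, with Cry1 at an unadjusted p of 0.0332). A dimmer probe set of Tef read 0.64 ± 0.15 lower in pCTSH#1 than in pcDNA at 0 h (adjusted p = 0.0264), while its brightest read -0.04 ± 0.099.

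**Figure D3:**
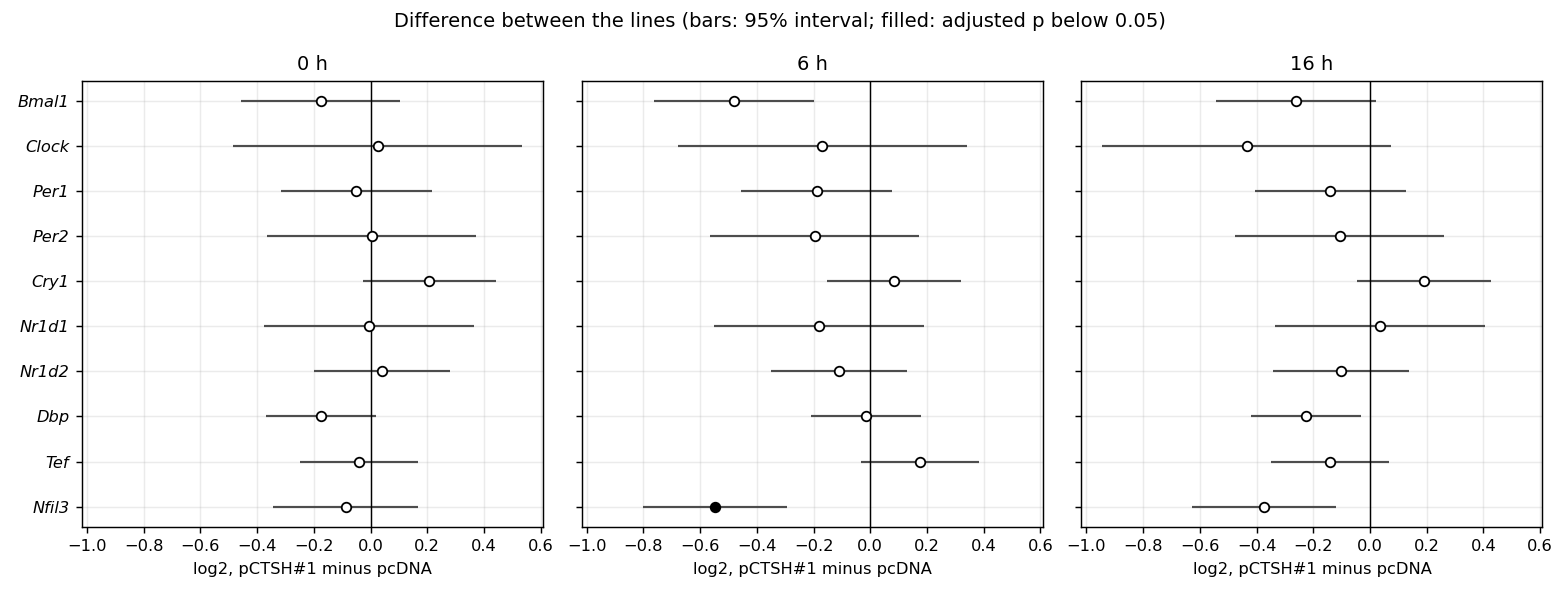
Difference between pCTSH#1 and pcDNA in log2 intensity (x axis) for the 10 clock genes (y axis) at 0, 6 and 16 h. Points are limma estimates from 3 arrays per group, bars are 95% intervals, and the only filled point, with an adjusted p below 0.05, is Nfil3 at 6 h.

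Ordered by level, the 16 h groups came first for all 10 genes. The pCTSH#1 group was highest for Nr1d1 and Cry1 and the pcDNA group for the others, and the difference between these neighbours passed for no gene. The 0 h groups of pcDNA and pCTSH#1 did not pass against each other or against INS1 for any gene. The 7 group means of Dbp and Tef correlated at 0.992, those of Per1 and Nr1d1 at 0.994 and those of Nfil3 and Nr1d2 at 0.997. The lowest value among the 45 pairs was 0.423, for Dbp with Per2, which differ at 6 h. These correlations describe 7 means that come from the same arrays.

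Genes outside the members and the other clock genes listed had patterns just as close. Among 4061 other genes whose group means spanned at least 1 on the log2 scale, 60 correlated with Nfil3 at 0.99 or above, 107 with Nr1d1, 97 with Bmal1 and 104 with Per1, but 15 with Dbp and 13 with Tef. These counts include other clock genes, such as Tef among the 15 of Dbp (r = 0.992), while the closest genes named next are on neither list. The closest to Nfil3 were Irf2bp2 (r = 0.9995 over 7 group means), Rbsn and Blzf1. The closest to Bmal1 were Taf1d, Nars1 and Orc4, to Nr1d1 Cobll1, Rragd and Wars2, and to Nr1d2 Dip2b, Blzf1 and Rab40c. For Per1 they were Aars1, Sel1l and Psat1, and for Per2 Kdm3a, Sun2 and Creb1. Those of Dbp were Apbb2, Abtb1 and Inpp5e, those of Tef C5h1orf216, Gprc5b and Zbtb8a, and those of Clock Abcb1a, Adora2a and Cln3. Cry1 spanned 0.924 and was not matched.

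Of 25 other clock genes and outputs listed, 19 were measured. At 6 h 3 rose (15.8%) and 5 fell (26.3%) in each line, near the shares over genes with 1 probe set each, of which 14.5% rose and 24.6% fell in pcDNA and 13% and 21.3% in pCTSH#1. At 16 h against 0 h 9 rose (47.4%) and 3 fell (15.8%) in pcDNA, where 25.8% of those genes rose and 29.5% fell, and 8 rose (42.1%) and 3 fell in pCTSH#1, where 25.2% and 30.1% did. From 6 to 16 h 13 rose and 1 fell in each (68.4% and 5.26%), against 24.8% and 25.1% in pcDNA and 24% and 25.2% in pCTSH#1. The one that fell is Csnk1d by its brightest probe set, which also counts among the 3 at 16 h against 0 h and whose direction some of its other probe sets turn. Their median change at 16 h was 0.28 in pcDNA and 0.29 in pCTSH#1, and over all probe sets 0.00097 and -0.0031. The list is described by these counts alone.

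In the core loop, Cry2, the second cryptochrome gene, fell by 1.78 ± 0.17 at 6 h in pcDNA (adjusted p = 6.37e-08, limma) and by 1.72 ± 0.17 in pCTSH#1. Its dimmer probe set moved less, reading 4.67 at 0 h and 4.22 at 6 h in pcDNA. In pCTSH#1 that probe set read 4.595 and 4.376, with overlapping arrays. At 16 h Cry2 was back at its start (-0.14 ± 0.17, adjusted p = 0.557, and -0.02 ± 0.17, 0.951). Per3 rose at 16 h by 0.79 ± 0.21 in pcDNA (adjusted p = 0.00361) and 0.72 ± 0.21 in pCTSH#1 (0.00758). Its other probe set read 0.04 and -0.02 (adjusted p = 0.868 and 0.947). That probe set lay at or below the nonspecific controls in most or all arrays of every group, so it says little about a change. The pCTSH#1 call of Per3 ended with the mean of both probe sets (0.35, 0.0508) or without replicate 3 of pCTSH#1 at 16 h (0.48, 0.068). Rora, an activator of Bmal1 that competes with the REV-ERB proteins, lay at or below the nonspecific controls in every group, as did Npas2, a relative of Clock, in 6 of the 7 groups, so no fold is given for them. The Npas2 call at 16 h in pCTSH#1 (adjusted p = 0.00857) counts among the 3 that fell and was lost with centred arrays (0.0583) or without replicate 3 of pCTSH#1 at 16 h (0.0636). Rorb did not pass in either line at 6 or 16 h.

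The DEC repressors of E-box genes parted at 6 h. Bhlhe40 (DEC1) rose by 0.99 ± 0.11 in pcDNA (adjusted p = 7.02e-07, limma) and 0.87 ± 0.11 in pCTSH#1 (4.9e-06), then stood 2.68 ± 0.11 and 2.49 ± 0.11 above 0 h at 16 h. Bhlhe41 (DEC2) fell by 1.46 ± 0.095 and 1.29 ± 0.095 at 6 h and stood 1.56 and 1.62 above 0 h at 16 h. The direction at 6 h was therefore opposite for these paralogs, and at 16 h both were higher. Timeless fell in pcDNA at 6 h by 0.34 (adjusted p = 0.0129) and at 16 h by 0.52 (0.000175), the former lost after cyclic loess (0.0813) or without replicate 3 of pcDNA at 0 h (0.0925). In pCTSH#1 Timeless did not pass as fitted at 6 h (-0.26, adjusted p = 0.0606, limma) or 16 h (-0.22, 0.0838). Among the brighter 50% of probe sets both of these values passed (0.0288 and 0.0449). Hlf, the third PAR bZIP gene, fell with Dbp and Tef at 6 h, by 0.63 ± 0.14 in pcDNA (adjusted p = 0.00143) and 0.80 ± 0.14 in pCTSH#1 (0.000144), but was not above 0 h at 16 h (0.22 and -0.26, adjusted p = 0.212 and 0.141).

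Among the 6 measured enzymes that mark PER and CRY proteins for turnover, Fbxw11 alone passed at 6 h (0.23 and 0.20, adjusted p = 0.0141 and 0.0311, limma). Neither value passed in a model of those groups alone (0.0644 and 0.109), and each was lost without some single arrays, the pcDNA one without replicate 3 at 0 h (0.0725) or 6 h (0.0559), the pCTSH#1 one without replicate 2 or 3 at either time (0.0744 to 0.125) and with centred arrays (0.0741). Btrc, a ubiquitin ligase subunit that acts on PER, rose by 1.45 ± 0.10 at 16 h in both lines (adjusted p = 1.82e-10 and 1.99e-10, limma), and its paralog Fbxw11 rose by 0.43 in pcDNA and 0.53 in pCTSH#1. Csnk1e, a PER kinase, rose by 0.63 ± 0.12 in pcDNA and 0.95 ± 0.12 in pCTSH#1. The brightest probe set of its paralog Csnk1d fell by 0.46 at 16 h in pcDNA, but 2 others rose by 1.34 and 1.04. A further one also read lower, at 7.57 against 7.92 at 0 h, and the dimmest read 4.39 against 4.34, so no direction is given for that gene. The mean over the probe sets of Csnk1d read 0.32 higher at 16 h in pcDNA (adjusted p = 0.00269). Gsk3b did not pass at 16 h against 0 h as fitted (0.18 and 0.21, adjusted p = 0.113 and 0.0515) and did so in both lines with centred arrays (0.27 and 0.30, adjusted p = 0.0151 and 0.00752). The brightest probe set of Csnk2a1 did not pass, but another probe set of Csnk2a1 rose by 1.18 in pcDNA (adjusted p = 0.000231) and by 1.02 in pCTSH#1 (0.00098).

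Among outputs, Nampt, the enzyme that supplies NAD, was the only measured one that rose at both times, by 1.99 ± 0.10 and 2.12 ± 0.10 in pcDNA (adjusted p = 2.33e-12 and 4.73e-13, limma) and by 1.82 and 2.29 in pCTSH#1. Noct, a rhythmic phosphatase of NADP, fell by 1.88 ± 0.10 at 6 h in pcDNA and remained 0.62 ± 0.10 below 0 h at 16 h (adjusted p = 1.02e-11 and 3.17e-05). Wee1, a cell cycle kinase with E-boxes in its promoter in other species, rose at 16 h by 0.99 ± 0.076 in pcDNA and 0.68 ± 0.076 in pCTSH#1. Between the lines Noct was 0.60 ± 0.10 higher in pCTSH#1 at 6 h (adjusted p = 0.00153), and at 16 h Hlf was 0.64 ± 0.14 lower (0.0118) and Wee1 0.29 ± 0.076 lower (0.0395). The Hlf call ended in a model of the 16 h groups alone (0.0805) and without replicate 1 of pCTSH#1 (0.0536) or replicate 3 of pcDNA (0.0525). The Wee1 call ended in 7 of the alternatives, centring included (0.076), and its other probe set did not pass (-0.22, 0.205). No other gene of the 19 passed between the lines as fitted.

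**Figure D4:**
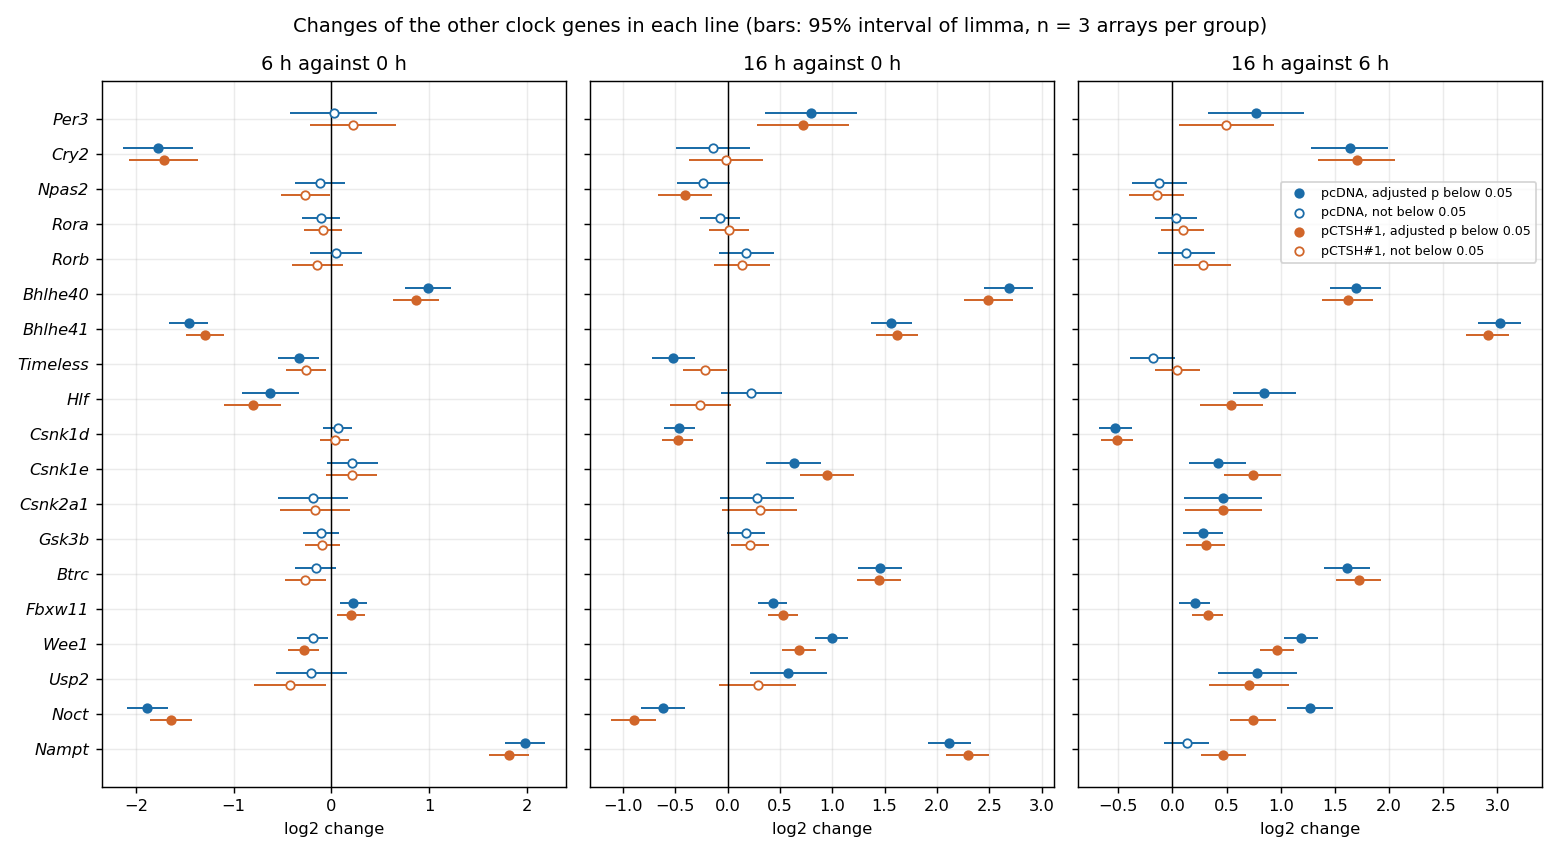
Log2 change (x axis) of 19 other clock genes and outputs (y axis) at 6 h against 0 h, 16 h against 0 h and 16 h against 6 h in pcDNA (blue) and pCTSH#1 (orange); bars are 95% intervals of limma with 3 arrays per group, and filled points have an adjusted p below 0.05. Cry2, Bhlhe41, Hlf and Noct lie left of 0 at 6 h, and Bhlhe40 and Nampt lie right of 0 at both 6 and 16 h.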

How the data were processed

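INS-1 RNA was measured on 21 arrays in 7 groups of 3. The authors deposited log2 intensities per probe set, made with RMA; RMA, affy and limma are named, without versions, per the submitters' processing notes. The values were used as deposited. After 95 controls were set aside, 31042 probe sets entered the test, dim ones included. Of these 19063 had 1 annotated symbol, 572 several and 11407 none listed. Sequences came from RefSeq (GRCr8).

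The test was limma 3.58.1 (R 4.3.3), 1 model of 7 group means, two-sided, with Benjamini-Hochberg adjustment over the 31042 probe sets within a comparison and calls at 0.05. Errors after ± are standard errors of the model unless SD is written. The script was tested on simulated data. The labels do not say that replicates are separate cultures, so p-values reflect only how far these arrays spread, and their number limits precision. Background was the highest tryptophan control probe set (never spiked in); the nonspecific controls as background and the members' other probe sets were added after seeing the data. Alternatives were a replicate block, median centring, cyclic loess, a filter to the brighter 50% of probe sets, a robust eBayes with trend, limma's array weights, a model of just the groups in question, the mean over a gene's probe sets, and leaving out each array. Each was fitted over all probe sets, or all genes for the mean; for the other clock genes they were added after seeing the data. Residuals of equally numbered arrays correlated above 0.1 in all 3 pairs for 2 of 21 pairs of groups (range -0.0903 to 0.244), so the numbers were not taken to pair the arrays. Both of these pairs were of 0 h groups. Between groups of the same time all such correlations were positive (0.0397 to 0.244), so a weak sharing within a time remains possible. The replicate block is the alternative that allows for it. All 10 members and any listed clock gene could be named, with the 3 genes of closest group means per member (span at least 1). Members and lists were chosen with earlier results of these data known. Plots used matplotlib 3.10.9 in Python 3.11.15.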

Additional observations from a re-analysis of the deposited data

How the results depend on the processing

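Of 47 called changes of the 10 genes, 43 kept their call under all alternatives listed in the methods in which the gene was fitted, on the same probe sets or without 1 array, and none of these turned the sign of a called change. The 4 others are Per2 in pcDNA and Nr1d2 in pCTSH#1 at 6 h, Clock in pcDNA from 6 to 16 h, and Nfil3 between the lines at 6 h, each given with its values above. The filter to the brighter 50% of probe sets left out Clock, so its calls were not examined under that filter. Of 70 called changes of the 19 other clock genes, 55 kept their call under all these alternatives; 4 changed sign, all of Csnk1d as the mean over its probe sets. Of 93 changes of the 10 genes without a call, 9 were called under some setting. Between the lines at 6 h the count of called genes was 2 instead of 1, with Bmal1 added, under several alternatives. These were the replicate block (963 of all 31042 probe sets called), the filter to the brighter 50% (1089 of 15521) and robust eBayes with trend (1100 of 31042). Array weights (1737 of 31042) and the mean over a gene's probe sets (646 of 13438 genes) did the same. As fitted 887 of 31042 were called, so each of these alternatives called a larger share of all features. In a model of the 6 h groups, which called 961 of 31042, Bmal1 alone passed (adjusted p = 0.0431, limma). When 1 array was left out the count of called genes was 0 to 1. At 16 h it was 0 to 1 when 1 array was left out. The replicate block gave Bmal1 at 6 h an adjusted p of 0.0169 (log2 difference -0.48) and Cry1 in pcDNA at 16 h one of 0.0424, and changed no other call of the 10 genes. Among the others it added Gsk3b (pCTSH#1 at 16 h, 0.025), Rorb (pCTSH#1 from 6 to 16 h, 0.0495) and Noct (between the lines at 0 h, 0.0424). Other probe sets reversed the sign for Per2 in pcDNA at 6 h (-0.12) and Tef in pcDNA at 16 h (-0.32); the cause was not tested. Signal near background limits Clock, and no untreated array exists at 6 or 16 h.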
